A study of Mus musculus with 6 samples.

Results

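The genes described here are the mouse zinc finger genes whose official symbol is Zfp followed by a number of 3 digits. The rule uses the symbol and no measured value, but it was set with earlier results of these data known. It leaves out Zfp473 and names Zfp352 among the genes to include. The deposited array table gave 230 such genes of 15267 genes tested, each read by 1 probe set. Another 10 probe sets met the rule by the gene number in their ID, but the platform annotation does not list them, and they were not analysed by name here.

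RNA was measured in E14Tg2a.4 cells, a mouse embryonic stem cell line, after depletion of Fip1, the product of Fip1l1. Fip1 belongs to the complex CPSF, which cuts the nascent transcript and directs the addition of its poly(A) tail. The 6 Affymetrix arrays form 3 groups of 2. The labels name them siFip1-2, siFip1-3 and Mock, and they are called siRNA 2, siRNA 3 and mock below. All cells were grown in M15 medium on gelatin-coated plates, were exposed to Lipofectamine 2000 and were harvested on day 4. The mock cells received the lipofection reagent and no siRNA, so the design has no non-targeting siRNA. The sample titles carry a suffix that differs between the 2 arrays of a group and is shared by the same-numbered arrays of all 3 groups. The labels do not say what it marks or whether replicates were separate cultures, so the p-values cover only the spread among these arrays.

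Most proteins with a Zfp name carry C2H2 zinc fingers, short folds that hold a zinc ion and that in tandem arrays read DNA. The number in the symbol is a naming convention and does not define a family. Many of these genes encode a KRAB domain, which recruits Trim28 and through it the histone methyltransferase Setdb1, and such proteins are known for silencing retroelements and keeping imprints in embryonic stem cells. Other Zfp proteins act in transcription without KRAB, bind RNA or serve the ribosome, and KRAB genes often lie in clusters of similar copies.

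The arrays were first checked against their labels. Fip1l1 was lower in all 4 siRNA arrays, with 32.5% of the mock level remaining for the mean of both siRNAs (adjusted p = 0.00176, limma). The log2 values of the 6 arrays had medians between 6.08 and 6.12, and the arrays correlated at 0.986 to 0.997 over all genes. All 7 embryonic stem cell markers had mock means between 9.98 and 13.4 on the log2 scale, and the 6 fibroblast markers had mock means between 3.30 and 6.37. No gene of either list passed the test without the replicate block. With it Nanog rose (adjusted p = 0.0312) and Tdgf1 fell (adjusted p = 0.0222). Of 5 trophectoderm markers Eomes and Gata3 rose (40%, beside 10.3% of all genes), and with the block Krt8 rose too (60%, beside 20.2%). Krt8 did not pass without it (adjusted p = 0.333), and its mock arrays read 9.19 and 7.75. Cdx2 at 0.13 (adjusted p = 0.701) and Elf5 at 0.07 (adjusted p = 0.685) did not pass in either model. The mean log2 value of that list was 6.01 to 6.21 on the siRNA arrays and 5.32 to 5.83 on the mock arrays. Of 3 mesoderm markers Kdr rose by 0.96 (adjusted p = 0.00323). Mixl1 at -0.15 and Mesp1 at -0.17 had the opposite sign and did not pass. The mean of that list was 5.48 to 5.76 on the siRNA arrays and 5.38 to 5.49 on the mock arrays. Of 4 neuroectoderm markers Zic1 rose by 0.76 (adjusted p = 0.0308) from a low mock mean of 3.64. Ncam1 at -0.36 (adjusted p = 0.135) and Pax6 at -0.35 (adjusted p = 0.153) had the opposite sign and did not pass. Sox1 had a difference of 0.05. The means of the list were 4.86 to 4.96 and 4.77 to 4.97. None of 4 primitive endoderm markers passed, with means of 5.22 to 5.62 and 5.28 to 5.72, and with the block Sox17 fell (adjusted p = 0.048). Any part of these shifts in the values below was not tested. In RNA from bulk cultures, fewer cells of a type and less RNA per cell cannot be told apart.

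Promoter sequences are shown for the gene with the largest rise and for a pair of genes that fell and that lie close to each other on chromosome 9. They come from RefSeq, build GRCm38.p6, and run from 250 bases before to 50 after the start, 5′ to 3′ on the strand of the gene. Such a window was given for 191 of the 230 Zfp genes and for 12273 of all 15267 genes. In the counts over promoters below, each gene was scored once, by the highest count among its windows. Genes with several windows can therefore score higher. The capitals mark TAATCC in Zfp352, and CCATCTTG and CCAAT, or its reverse complement ATTGG, in the other sequences. These motifs were chosen after the sequences had been read. Zfp352 lies at chr4:90218570-90218869 on the plus strand, Zfp809 at chr9:22225453-22225752 on the plus strand, and Zfp810 at chr9:22307589-22307888 on the minus strand. Zfp809 has 2 such windows, of which the first is shown.
Zfp352: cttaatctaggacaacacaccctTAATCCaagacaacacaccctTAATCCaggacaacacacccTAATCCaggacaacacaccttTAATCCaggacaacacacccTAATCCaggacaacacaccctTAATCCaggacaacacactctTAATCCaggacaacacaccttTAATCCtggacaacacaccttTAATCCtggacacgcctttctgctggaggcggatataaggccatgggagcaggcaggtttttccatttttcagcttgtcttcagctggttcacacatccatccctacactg
Zfp809: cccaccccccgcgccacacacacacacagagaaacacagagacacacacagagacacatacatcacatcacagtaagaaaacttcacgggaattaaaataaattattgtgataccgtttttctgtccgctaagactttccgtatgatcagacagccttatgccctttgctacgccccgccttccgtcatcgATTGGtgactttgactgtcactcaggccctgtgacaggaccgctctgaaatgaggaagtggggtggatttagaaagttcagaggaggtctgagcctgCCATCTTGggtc
Zfp810: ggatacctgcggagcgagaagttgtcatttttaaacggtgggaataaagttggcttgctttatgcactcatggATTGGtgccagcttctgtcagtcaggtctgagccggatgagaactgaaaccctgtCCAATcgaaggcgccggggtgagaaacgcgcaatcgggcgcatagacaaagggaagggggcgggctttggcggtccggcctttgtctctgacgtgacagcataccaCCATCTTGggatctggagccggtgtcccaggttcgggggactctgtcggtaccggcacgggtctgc

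The Zfp352 window holds TAATCC 9 times. All 9 matches are on the strand of the gene, the first begins at base 24 and the last at base 190, and neighbouring matches begin 20 or 21 bases apart. The stretch is therefore a tandem repeat, and ACAACACA recurs beside it, also 9 times. A search of both strands found at least 1 TAATCC in 878 of 12273 promoters (7.15%) and in 18 of the 191 Zfp promoters (9.42%). Zfp352 was the only gene with more than 3 matches, and the next highest count was 3. The letters TAATCC are known as a preferred site of homeodomain proteins of the Otx and Crx kind. A match in a window is a description and says nothing of binding here. The window has 2 CpG dinucleotides, against a median of 16 over the Zfp promoters and 19 over all promoters. Only 4 Zfp promoters (2.09%) and 958 of all promoters (7.81%) had 2 or fewer.

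The Zfp809 and Zfp810 windows both hold CCATCTTG once, at base 289 and base 235 on the strand of the gene. This motif was found on either strand in 348 of all promoters (2.84%) and in 8 Zfp promoters (4.19%). CCAAT or ATTGG occurs once in the Zfp809 window and 2 times in the Zfp810 window. It was present in 42.2% of all promoters, in 45.5% of the Zfp promoters, in 7 of the 9 promoters of Zfp genes that fell and in 1 of the 5 promoters of those that rose. These sets are small and were not tested. Both motifs were chosen after the Zfp809 and Zfp810 windows had been read, and these windows are part of the counts, including the 7. The median CpG count was 11 over the promoters of the genes that fell and 17 over those of the genes that rose. TATAAA was present in 8.9% of the Zfp promoters and 11.4% of all promoters, and GGGCGG in 52.9% and 60%.

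Few of the Zfp genes passed the test for Fip1 depletion in the main model, which has no replicate term. Of the 230, 6 rose, 10 fell and 214 did not pass for the mean of both siRNAs against mock, at an adjusted p under 0.05 in limma. That is 6.96% of the Zfp genes, beside 10.3% of all genes tested. Over all genes 4.15% rose and 6.19% fell. The differences of the Zfp genes were 112 positive and 118 negative, with a median of -0.01 on the log2 scale, which was also close to 0 over all genes. The values ranged from -0.79 to 1.88, and only Zfp352 and Zfp560 passed with a change of 2-fold or more. At an unadjusted p under 0.05 there were 57 Zfp genes, 24.8% beside 24.3% of all genes. The 95% interval of the difference lay within 1.5-fold in both directions for 165 Zfp genes (71.7%), and for 74.2% of all genes.

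The values on the 6 arrays did not overlap between the siRNA and mock groups for 90 Zfp genes, 43 higher and 47 lower, which is 39.1% beside a background of 33.5% of all genes. When the replicate number entered the model as a block, 20 Zfp genes rose and 24 fell, 19.1% beside 20.2% of all genes. The 16 genes that passed without the block all passed with it.

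**Figure D1:**
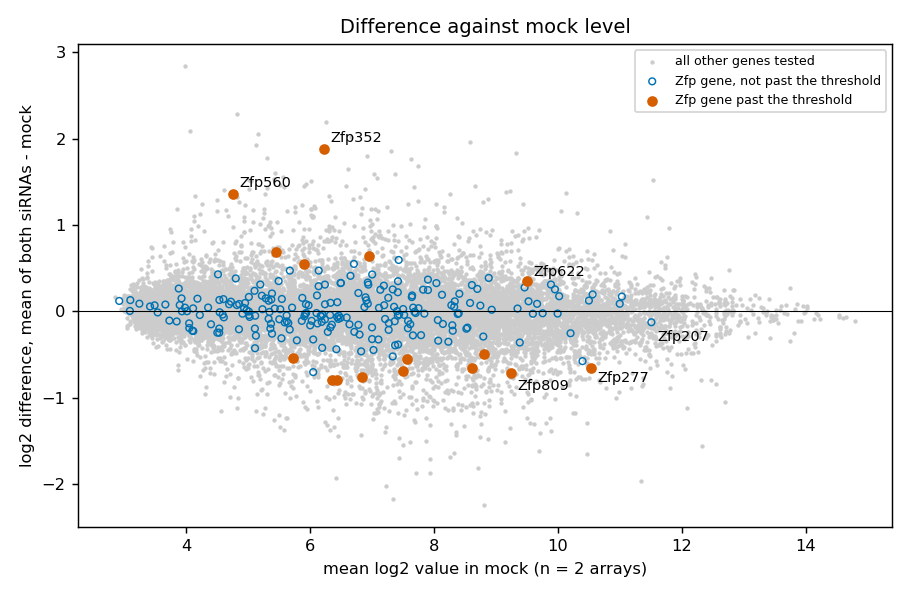
Each point is 1 gene, with its mean log2 value over the 2 mock arrays on the horizontal axis and its log2 difference, mean of both siRNAs minus mock, on the vertical axis. The 16 Zfp genes past the threshold are filled, the other 214 are open circles, and all other genes are grey. Zfp352 at 1.88 and Zfp560 at 1.36 stand above the other Zfp genes.

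Zfp352 had the largest change. Its log2 values were 8.14 and 8.13 with siRNA 2, 8.03 and 8.09 with siRNA 3, and 6.45 and 5.99 in mock. All 4 siRNA arrays were above both mock arrays and lay within a narrow range. The difference was 1.88 (SE 0.142, 95% interval 1.56 to 2.20, adjusted p = 0.000616, limma), which is 3.68-fold. Zfp352 encodes a zinc finger protein known for its transcription in early mouse embryos and in stem cells that pass through a 2-cell-like state. The other 7 genes of the 2-cell-like list were not analysed here, so no second gene of that list stands beside it. Each siRNA gave a similar value, 1.92 for siRNA 2 and 1.84 for siRNA 3, and the interval of the difference between them was -0.30 to 0.45. Zfp352 alone of the 16 genes kept its call without any 1 array, with differences of 1.65 to 2.11 and adjusted p of 0.000591 to 0.00788.

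The rise of Zfp560 was less certain. Its log2 values were 5.85 and 6.26 with siRNA 2, 6.07 and 6.29 with siRNA 3, and 5.32 and 4.19 in mock. Both mock arrays were below every siRNA array, but they differed from each other by 1.12, against a median mock gap of 0.17 over the Zfp genes. The difference was 1.36 (SE 0.282, adjusted p = 0.0201, limma) with a 95% interval of 0.72 to 2.01. Without mock replicate 2 it was 0.80 and did not pass (adjusted p = 0.101). It also missed the threshold without siRNA 2 replicate 2 (adjusted p = 0.0723).

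The other genes that rose moved by less than 2-fold. Zfp248 read 5.97 and 6.15 with siRNA 2, 6.08 and 6.37 with siRNA 3, and 5.43 and 5.47 in mock, a difference of 0.69 (adjusted p = 0.0166). Zfp365, whose human counterpart helps cells to recover stalled replication forks, read 7.52 and 7.43, 7.83 and 7.61, and 7.0 and 6.91 in the same order. The difference was 0.65 (SE 0.118, adjusted p = 0.0126), and it did not pass without mock replicate 2 (adjusted p = 0.107). Zfp185 is a LIM domain protein of the actin cytoskeleton in spite of its name. It read 6.46 and 6.68 with siRNA 2, 6.37 and 6.27 with siRNA 3, and 5.84 and 5.95 in mock. That is a difference of 0.55 (adjusted p = 0.0298), with both siRNA 2 arrays above both siRNA 3 arrays. Zfp622, whose yeast counterpart takes part in the maturation of the large ribosomal subunit, had a small and even shift. It read 9.92 and 9.80, 9.86 and 9.82, and 9.50 and 9.50, a difference of 0.35 (SE 0.086, adjusted p = 0.037). In all of these genes the groups did not overlap. Zfp185 and Zfp622 lost their calls when any 1 of the 6 arrays was left out, at adjusted p of up to 0.128 and 0.186.

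Of the genes that fell, Zfp809 had the smallest adjusted p. Zfp809 is the KRAB protein that recognises the primer binding site for proline transfer RNA and silences murine leukaemia virus in mouse stem cells. Its log2 values were 8.57 and 8.57 with siRNA 2, 8.35 and 8.61 with siRNA 3, and 9.33 and 9.16 in mock. All siRNA arrays were below both mock arrays, and the siRNA groups overlapped each other. The difference was -0.71 (SE 0.112, adjusted p = 0.00702), a level 1.64-fold lower. Both siRNAs passed alone, at -0.67 (adjusted p = 0.0205) and -0.76 (adjusted p = 0.0161). Without mock replicate 1 the adjusted p was 0.0519. Zfp810, whose promoter is shown above, read 6.08 and 6.18, 5.94 and 6.13, and 6.54 and 7.14. Its mock arrays lay far apart, and the difference of -0.76 (adjusted p = 0.0299) was -0.46 without mock replicate 2 (adjusted p = 0.198). Zfp599, the measured Zfp gene between these in gene order, was not past the threshold at 0.31 (adjusted p = 0.258). It was picked out after the values were seen. Related Zfp genes can share sequence, so a probe set may read more than 1 of them.

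Zfp799 also fell with each siRNA alone. Its log2 values were 7.89 and 7.78 with siRNA 2, 8.09 and 8.05 with siRNA 3, and 8.70 and 8.51 in mock. The siRNA 2 arrays were the lowest and the mock arrays the highest, with no overlap between any groups. The difference was -0.65 (SE 0.108, adjusted p = 0.00858), and without mock replicate 1 the adjusted p was 0.0601. Zfp938 read 5.43 and 5.52 with siRNA 2, 6.0 and 5.61 with siRNA 3, and 6.42 and 6.44 in mock. It fell by 0.79 on the log2 scale (SE 0.143, adjusted p = 0.0121), with siRNA 2 below siRNA 3 and mock above both. Zfp444 fell by the same amount from a wider mock pair, with values of 5.35 and 5.77, 5.66 and 5.49, and 6.19 and 6.53 (adjusted p = 0.0217). Without mock replicate 2 it did not pass (adjusted p = 0.175).

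The remaining genes that fell had differences from -0.49 to -0.69. Zfp975 read 6.92 and 6.51 with siRNA 2, 6.90 and 6.89 with siRNA 3, and 7.57 and 7.42 in mock (difference -0.69, adjusted p = 0.0206). Zfp277, which in mouse fibroblasts helps a Polycomb complex to repress the Ink4a/Arf locus, was among the brightest Zfp probe sets. It read 9.82 and 10.03 with siRNA 2, 9.74 and 9.95 with siRNA 3, and 10.30 and 10.78 in mock. The difference was -0.65 (SE 0.143, adjusted p = 0.0252), and without mock replicate 2 it was -0.41 (adjusted p = 0.193). Zfp512 read 8.31 and 8.21, 8.35 and 8.42, and 8.85 and 8.77, a difference of -0.49 with a small spread in each group (adjusted p = 0.018). Zfp397, whose human counterpart is found at centromeres, read 5.20 and 5.27, 5.22 and 5.05, and 5.71 and 5.75 (adjusted p = 0.0267). Zfp239, a protein of nucleic acid binding fingers, was closest to the threshold, with a difference of -0.55 (adjusted p = 0.0487) and a call that ended without any 1 of 5 arrays. In each of these genes both mock arrays were above all 4 siRNA arrays.

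**Figure D2:**
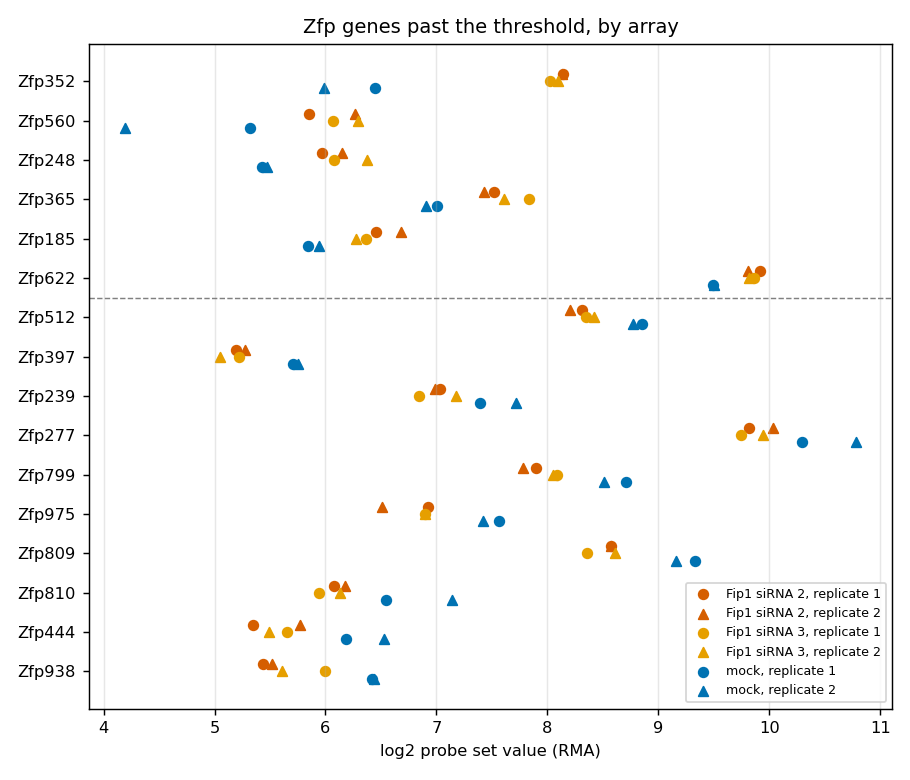
The horizontal axis is the log2 probe set value and each row is 1 of the 16 Zfp genes past the threshold. Colours stand for siRNA 2, siRNA 3 and mock, circles for replicate 1 and triangles for replicate 2. The 6 genes above the dashed line rose and the 10 below it fell. The mock pair of Zfp560 lies 1.12 apart.

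Many calls ended when 1 array was left out, among all genes as well. Without mock replicate 2, 13 of the 16 genes missed the threshold, and 1.3% of the Zfp genes and 2% of all genes passed. Without mock replicate 1, 10 calls ended, and 3.91% of the Zfp genes and 6.21% of all genes passed. Leaving out siRNA 2 replicate 1 ended 7 calls and siRNA 2 replicate 2 ended 10, where 2.61% of the Zfp genes and 4.96% of all genes passed. Leaving out siRNA 3 replicate 1 ended 4 and siRNA 3 replicate 2 ended 3. No call changed its direction.

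The siRNAs were also set against mock 1 at a time. With siRNA 2, 2 Zfp genes rose and 6 fell, 3.48% beside 6.92% of all genes. With siRNA 3, 4 rose and 4 fell, also 3.48%, beside 5.74% of all genes. With the replicate block 35 Zfp genes passed for siRNA 2 (15.2%, beside 17.2% of all genes) and 25 for siRNA 3 (10.9%, beside 14.1%). Each gene that passed for a single siRNA also passed for their mean. Zfp352, Zfp809 and Zfp799 passed for both. Zfp938, Zfp444, Zfp975, Zfp512 and Zfp185 passed for siRNA 2, and Zfp560, Zfp248, Zfp365, Zfp277 and Zfp397 for siRNA 3. Passing for one siRNA and not for the other does not show that they differ, and the direct test of siRNA 2 minus siRNA 3 called 0 Zfp genes and 0 of all genes (0%) in limma. At an unadjusted p under 0.05 that test gave 2 Zfp genes and 644 of all genes (4.22%). These were Zfp462, lower with siRNA 2 by a difference of -0.36 (unadjusted 95% interval -0.67 to -0.06), and Zfp784, at 0.29 (0.03 to 0.55). Neither passed after adjustment (adjusted p = 0.984). Among the positive differences the next smallest p belonged to Zfp691 at 0.36 and Zfp526 at 0.25, and among the negative ones to Zfp938 at -0.33 and Zfp423 at -0.28. None of these passed.

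The Zfp genes were then ordered by role. The lists were drawn up with earlier results of these data known. The 5 measured KRAB proteins with a known retroelement or imprint target all had negative differences. Zfp809 was the only 1 of them to pass (20%, beside 10.3% of all genes). It was also the only 1 with an unadjusted p under 0.05 in limma (20%, beside 24.3%). Zfp819, which restrains retroelements in stem cells, read 8.13 and 7.88 with siRNA 2, 8.15 and 8.15 with siRNA 3, and 8.31 and 8.29 in mock (difference -0.22, adjusted p = 0.262). Zfp708, which binds a class of retroelement copies in the germ line, had a difference of -0.20 (adjusted p = 0.396). Zfp568, a repressor of a placental Igf2 transcript, had a difference of -0.19 and arrays that overlapped, from 7.85 to 9.16 with siRNA against 8.75 and 8.32 in mock. Zfp445, which protects imprints, had a difference of -0.14 (adjusted p = 0.667). The sixth gene of the list was not analysed here.

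None of the 6 measured stem cell factors passed in limma, and 3 (50%) had an unadjusted p under 0.05, beside 24.3% of all genes. Zfp281, a regulator of the exit from pluripotency, read 11.10 and 10.99 with siRNA 2, 11.10 and 11.15 with siRNA 3, and 11.09 and 10.90 in mock. The groups overlapped, and the difference was 0.09 (SE 0.0855, adjusted p = 0.596). Zfp207, a spindle and splicing factor needed by stem cells, read 11.48 and 11.40, 11.38 and 11.27, and 11.53 and 11.48, a difference of -0.12 (adjusted p = 0.37). Zfp706, which acts in the exit from self-renewal, had a difference of 0.17. Zfp296, a partner of Klf4 in reprogramming, had 0.26, Zfp462, a heterochromatin factor, 0.28, and Zfp266, known as a barrier to reprogramming, 0.05. Their adjusted p-values were 0.18 to 0.89. The intervals of all 6 lay within 1.5-fold in both directions.

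None of the 11 measured chromatin and corepressor partners passed either, and 2 (18.2%) had an unadjusted p under 0.05, beside 24.3% of all genes. The intervals of 10 lay within 1.5-fold. The values ran from -0.28 for Zfp335, a component of histone methyltransferase complexes, to 0.31 for Zfp451, an E3 ligase for SUMO. Zfp451 read 10.11 and 10.14 with siRNA 2, 10.15 and 10.39 with siRNA 3, and 9.96 and 9.81 in mock, with no overlap. Its adjusted p was 0.0885, and 0.0374 with the replicate block. Zfp410, the activator of Chd4, had a difference of 0.25 and Zfp827, a partner of the NuRD complex, 0.21. Zfp644, a partner of the methyltransferase G9a, had 0.20 and Zfp711, an X-linked partner of the demethylase Phf8, 0.18. The partners of Zmynd8 had differences of 0.12 for Zfp532, 0.11 for Zfp592 and -0.05 for Zfp687. Zfp219 had 0.02 and Zfp652 had -0.03.

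Of the 8 RNA and ribosome genes Zfp622 rose and none fell, 12.5% beside 10.3% of all genes. At an unadjusted p under 0.05 in limma there were 3 (37.5%), beside 24.3% of all genes. Zfp346, which binds double-stranded RNA, was the next nearest to the threshold. It read 6.72 and 6.47 with siRNA 2, 6.51 and 6.61 with siRNA 3, and 7.04 and 7.01 in mock. The mock arrays were the highest, and the difference was -0.45 (adjusted p = 0.0583, and 0.0216 with the replicate block). Zfp326, a link between RNA polymerase II and messenger RNA particles, had a difference of 0.37 (adjusted p = 0.124). Zfp598, the ubiquitin ligase that senses collided ribosomes, had 0.18 (adjusted p = 0.239) with all siRNA arrays above both mock arrays. The splicing factor Zfp830 had a difference of 0.13. Zfp638, which silences unintegrated retroviral DNA, had 0.09, the RNA-binding Zfp106 had -0.02 and Zfp593, a factor of ribosome maturation, had -0.03.

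Of the 13 measured differentiation and signalling genes Zfp365 rose and none fell, 7.69% beside 10.3% of all genes. At an unadjusted p under 0.05 in limma there were 3 (23.1%), beside 24.3% of all genes. Zfp148, a Kruppel-type regulator also named ZBP-89, read 7.68 and 7.85, 7.76 and 7.78, and 7.52 and 7.31. Its difference was 0.35 (adjusted p = 0.102, and 0.0454 with the replicate block). Zfp521, known from neural and blood progenitors, had the lowest value of the list, -0.23 (adjusted p = 0.18). The adipocyte regulators Zfp423, Zfp467 and Zfp516 had differences of 0.07, 0.15 and -0.04. The epidermal factor Zfp750 and the neural factor Zfp536 both had -0.05, and Zfp503 and Zfp703, a related pair of developmental repressors, had 0.07 and -0.01. Zfp110 and Zfp369, which bind the neurotrophin receptor p75, had -0.02 and -0.11, and Zfp318, needed for IgD in B cells, had -0.12. None of these passed. The 186 Zfp genes in no list gave 3 rises and 9 falls, 6.45% beside 10.3% of all genes.

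**Figure D3:**
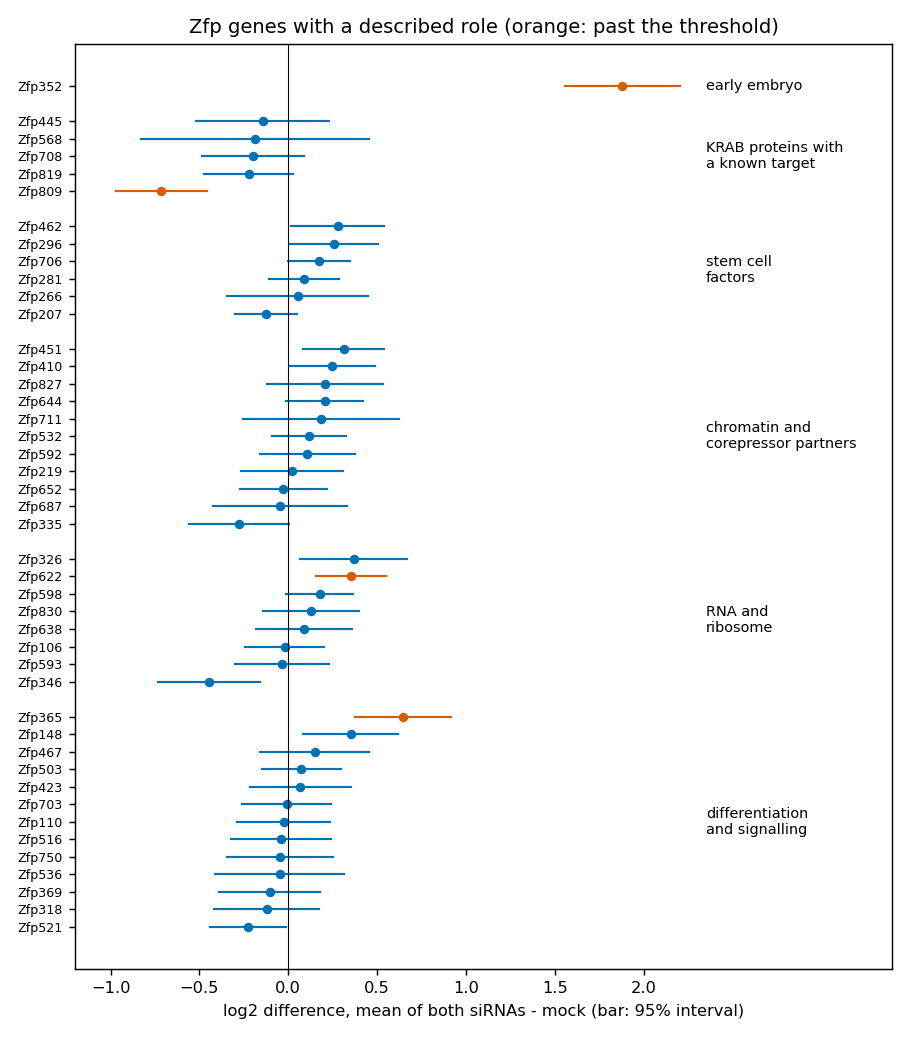
The horizontal axis is the log2 difference, mean of both siRNAs minus mock, with its 95% interval as a bar. The rows are the 44 Zfp genes of the 6 role lists, ordered within each list, and orange marks those past the threshold. Of these, Zfp352, Zfp622 and Zfp365 rose and Zfp809 fell.

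The corepressor machinery used by KRAB proteins was read from 12 of 14 listed genes, which are not Zfp genes. Only Atf7ip, the partner of Setdb1, passed (8.33%, beside 10.3% of all genes). Atf7ip read 7.83 and 8.06 with siRNA 2, 8.25 and 7.99 with siRNA 3, and 8.97 and 8.63 in mock (difference -0.77, SE 0.14, adjusted p = 0.0124). Trim28 had a difference of -0.04 and Setdb1 of 0.01, with overlapping groups in both. With the replicate block Atf7ip and Dnmt1 fell, and Cbx1 and Daxx rose (33.3%, beside 20.2% of all genes). Without it the adjusted p was 0.0657 for Dnmt1, 0.0575 for Cbx1 and 0.0793 for Daxx.

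The share of genes that passed differed between classes of probe set brightness. The median mock value of the Zfp probe sets was 6.43 on the log2 scale, beside 6.20 for all probe sets tested, and 23 of them (10%) were below 4.27, the 25th percentile over all. Probe sets differ in brightness for reasons other than transcript number, so these values and orders describe the probe sets and not the amounts of transcript. When all genes were divided into 4 equal classes of mean level, 0 of the 22 Zfp genes in the dimmest class passed in limma, beside 1.39% of all genes there. At an unadjusted p under 0.05 there were 2 (9.09%), beside 7.47%. In the next class 5 of 83 Zfp genes passed (6.02%, beside 7.57%), then 7 of 88 (7.95%, beside 15.7%), and in the brightest 4 of 37 (10.8%, beside 16.7%). With the replicate block the shares in these classes were 0% beside 3.38%, 13.3% beside 15%, 25% beside 30.4% and 29.7% beside 31.9%. The Zfp share past the adjusted threshold was below that of all genes in each class in both models. At an unadjusted p under 0.05 in limma it was above that of all genes in the dimmest class and in the brightest (37.8% beside 35.9%). In the classes between it was 18.1% beside 19.5% and 29.5% beside 34.6%. These shares were not tested, since neighbouring and related genes are not independent.

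**Figure D4:**
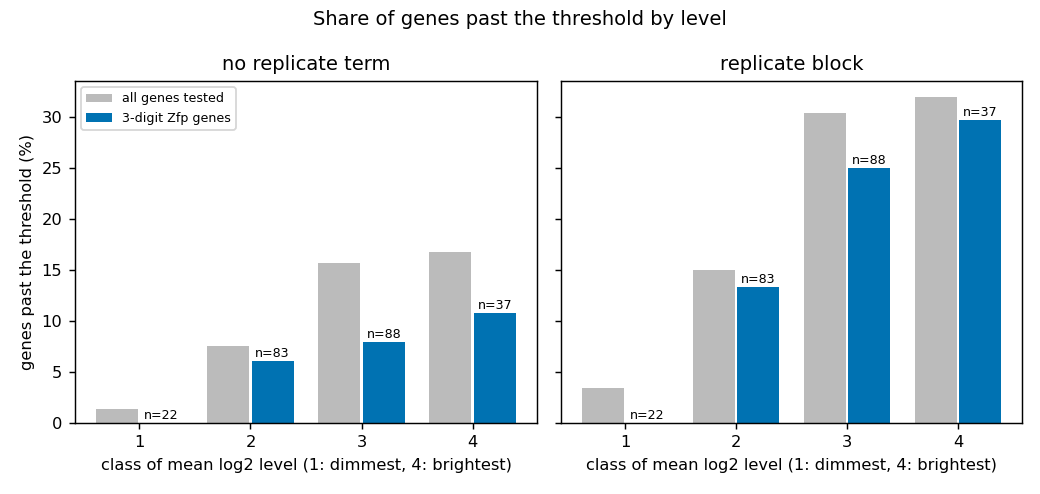
Bars give the percent of genes past the threshold in each of 4 classes of mean log2 level, grey for all genes tested and blue for the Zfp genes, whose number stands above each bar. The left panel has no replicate term and the right panel has the replicate block. In the brightest class the shares are 10.8% and 16.7% on the left and 29.7% and 31.9% on the right.

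The Zfp probe sets with the highest mock values were Zfp207, Zfp706, Zfp281, Zfp330 and Zfp277, of which Zfp277 alone passed. Zfp330 read 10.84 and 10.65 with siRNA 2, 10.70 and 10.83 with siRNA 3, and 10.64 and 10.48 in mock. Its groups lay close together, at a difference of 0.20 (adjusted p = 0.254). At the other end, Zfp455, Zfp558, Zfp616, Zfp658 and Zfp735 had mock means of 2.92 to 3.41. Their differences were 0.01 to 0.13, all with overlapping groups. No detection calls were used, so values this low may be background.

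Many of the genes lie next to each other. Runs were defined as 4 or more measured Zfp genes on 1 chromosome with at most 10 other genes between neighbours. There were 12 such runs of 4 to 9 genes, which hold 72 Zfp genes. Of these 72 only Zfp799 passed (1.39%), while 15 of the 158 Zfp genes outside the runs did (9.49%), beside 10.3% of all genes. At an unadjusted p under 0.05 in limma the shares were 18.1% inside and 27.8% outside, beside 24.3% of all genes. With the replicate block the numbers were 10 (13.9%) and 34 (21.5%), beside 20.2% of all genes. The median mock values were 6.23 inside and 6.44 outside. This comparison was not tested, and probe sets for similar copies may share signal.

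Each run held both positive and negative differences, some of them close to 0. In the run that holds Zfp799, its neighbour Zfp871 had a difference of 0.43 (adjusted p = 0.081). Zfp871 read 7.12 and 7.45 with siRNA 2, 7.48 and 7.65 with siRNA 3, and 7.04 and 6.96 in mock, so that Zfp799 and Zfp871 stood on opposite sides of mock. In the run from Zfp786 to Zfp746 the last gene read 6.62 and 6.91, 6.82 and 6.89, and 7.18 and 7.48. Zfp746 thus had a difference of -0.52 (adjusted p = 0.0517, and 0.00785 with the replicate block). The highest value there was 0.33 for Zfp212 (adjusted p = 0.0914, and 0.0381 with the block). Zfp946 had the highest difference inside a run, 0.60, with values of 7.82 and 8.23, 8.25 and 7.80, and 7.70 and 7.15 (adjusted p = 0.103). Beside it Zfp945 had -0.33 (adjusted p = 0.128).

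The genes named for the other runs are the highest and the lowest of each run, so their contrast follows from the choice. None of them passed without the block. Some of their signs cannot be told apart from 0, such as those of Zfp229 (SE 0.297) and Zfp329 (SE 0.118). Zfp566 at 0.39 (adjusted p = 0.0576) and Zfp790 at -0.24 stood in 1 run, and Zfp869 at 0.47 and Zfp930 at -0.34 in another. Zfp820 at 0.41 and Zfp229 at -0.10 were the extremes of their run. The mock arrays of Zfp229 were 8.63 and 7.49, the widest mock pair of all the Zfp genes. Zfp112 at 0.35 and Zfp235 at -0.32, Zfp689 at 0.16 and Zfp553 at -0.35, and Zfp329 at 0.10 and Zfp324 at -0.26 were the extremes of a run each. The same holds for Zfp954 at 0.16 and Zfp418 at -0.18, Zfp748 at 0.26 and Zfp708 at -0.20, and Zfp784 at 0.27 and Zfp628 at -0.11. With the block Zfp566, Zfp820, Zfp871, Zfp869 and Zfp946 rose and Zfp553 and Zfp930 fell, at adjusted p of 0.0157 to 0.0401.

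**Figure D5:**
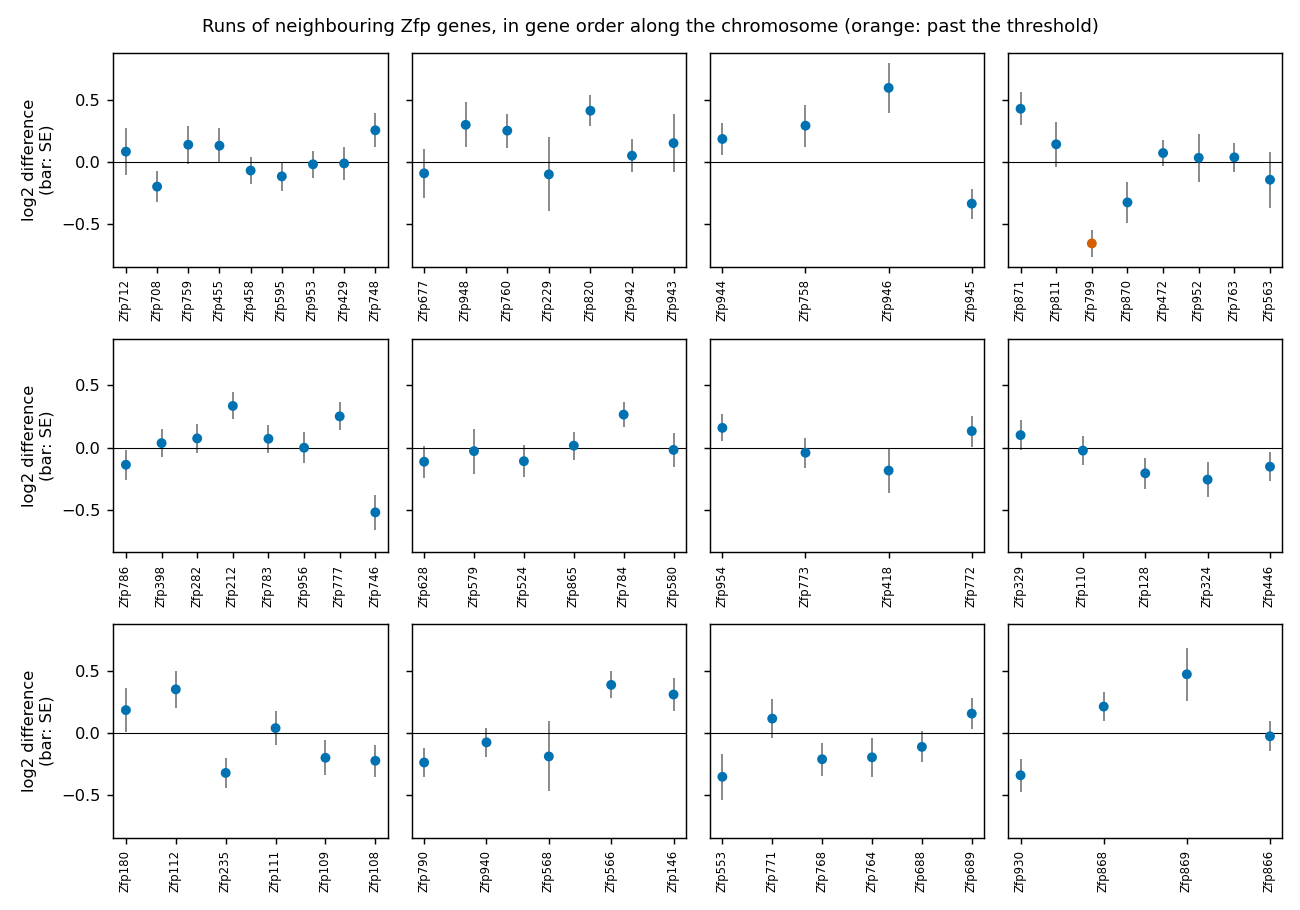
Each panel is 1 of the 12 runs of neighbouring Zfp genes in gene order, and the vertical axis is the log2 difference, mean of both siRNAs minus mock, with its standard error as a bar. Orange marks Zfp799, the only gene of the runs past the threshold. In each panel some genes lie above 0 and others below.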

How the data were processed

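RNA of 6 samples was measured on Affymetrix arrays, in 3 groups of 2. The authors deposited RMA output in log2 units, according to the submitters' processing notes. RMA compresses changes at both ends of the scale. The RMA version, its settings and how probe sets were defined were not given in the sources used here. Probe positions were not used, so a shifted transcript end and a changed mRNA level cannot be told apart.

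Of 16556 probe sets, 15270 had 1 gene in the platform annotation, 0 had several and 1286 had none. For 3 genes with 2 probe sets the brighter was kept, which left 15267 genes, with no filter. Symbols and gene order came from a GRCm38.p6 table.

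A linear model of the 3 groups was fitted to every gene in limma 3.58.1 (R 4.3.3) with moderation by a trend over mean level and 3 residual degrees of freedom. The p-values are two-sided and adjusted by Benjamini-Hochberg over 15267 genes at 0.05. On simulated data with 200 changed genes of 15267, the fit for the mean of both siRNAs recovered 53.5% at 1.5-fold and 100% at 2-fold and 4-fold, with 5, 8 and 8 false calls. The simulated arrays varied independently, while the same-numbered arrays here correlated and 10.3% of all genes passed. These rates therefore need not hold for these data. Precision is limited by the number of arrays.

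The replicate numbers come from the sample descriptions, and same-numbered arrays share a suffix in their titles. Deviations from the group means of same-numbered arrays correlated at 0.383, 0.281 and 0.443 over all genes, so these arrays can be read as pairs. The main model has no replicate term and leaves this pairing out. Unless the block is named, the p-values and counts come from the model without a replicate term. The replicate block is an alternative, as are other scalings, filters and priors and leaving out each array.

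The Zfp genes, the lists and the naming rule were chosen with earlier results of these data known. The rule names the 10 largest rises and falls past the threshold with 1 sign in all 4 pairs of same-numbered arrays, the 5 largest per siRNA (or, where none passes, the 3 smallest p in each direction), all genes of the lists, the 5 brightest and dimmest, and the extremes of each run. Protein sequences were not used here.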

Additional observations from a re-analysis of the deposited data

How the results depend on the processing

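The number of Zfp genes past the threshold moved with the processing, mainly through the replicate block and through single arrays. With the replicate block 20 rose and 24 fell (main model: 6 and 10), 35 passed for siRNA 2 and 25 for siRNA 3 (main model: 8 each), while the share of all genes rose from 10.3% to 20.2% for the mean of both, and siRNA 2 minus siRNA 3 gave 0. The block ended no call, and it brought the genes whose block values stand beside their results past the threshold. Leaving out 1 array at a time gave 1 to 6 rises, 2 to 10 falls, 1 to 10 calls for siRNA 2 and 1 to 6 for siRNA 3. It left 3 to 13 of the 16 named calls. The lowest of these counts of rises, falls and named calls came without mock replicate 2, where the share of all genes fell from 10.3% to 2%. For siRNA 2, 13 of the 125 Zfp genes left passed without genes under the median level. For siRNA 3 it was 5 of 230 with median centring and 5 of 230 with repeated quantile normalization. Shares over all genes are not given for these single-siRNA counts. Over all alternatives but the block and the left-out arrays, 15 to 20 Zfp genes passed for the mean of both siRNAs. The filters by level tested fewer Zfp genes. Without genes under the 25th percentile 20 of 208 passed (9.62%, beside 14.9% of all genes left). Without genes under the median level 19 of 125 passed (15.2%, beside 20.4%). No call of a named gene changed its direction. Signs of 44 other values changed where neither model called the gene. The calls of siRNA 2 minus siRNA 3 were 0 throughout. Limits are the 2 arrays per group, unknown background level for dim probe sets, and similar gene copies that may share probes.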

Other observations

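Other classes of zinc finger genes, which share the 6 arrays with the 3-digit Zfp genes, gave these counts for the mean of both siRNAs. Over all genes 10.3% passed. Of 42 Zfp genes with 1 or 2 digits, 3 rose and 4 fell (16.7%), and 13 (31%) had an unadjusted p under 0.05 in limma. Of 37 Zbtb genes, whose proteins join zinc fingers to a BTB domain, 0 rose and 2 fell (5.41%). At an unadjusted p under 0.05 there were 7 Zbtb genes (18.9%), beside 24.3% of all genes. Of 17 Zscan and Zkscan genes, named for the SCAN domain, 1 fell (5.88%), and 5 (29.4%) had an unadjusted p under 0.05. The differences between these shares were not tested. Of the 10 probe sets left unnamed, 1 fell, at a difference of -0.91 (adjusted p = 0.00623, in the fit of all probe sets), and the other 9 did not pass (adjusted p of 0.0841 or more).

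Several Zfp genes lay just outside the threshold and passed with the replicate block. They were picked out after their values were seen. Zfp438 read 4.91 and 5.42 with siRNA 2, 5.20 and 5.85 with siRNA 3, and 5.99 and 6.1 in mock, a difference of -0.70 (adjusted p = 0.0736, and 0.00647 with the block). Zfp936 read 9.99 and 9.49, 9.88 and 9.92, and 10.63 and 10.16, a difference of -0.57 (adjusted p = 0.0654, and 0.00676 with the block). Zfp160 read 7.22 and 7.24, 7.37 and 7.20, and 6.97 and 6.44, a difference of 0.55 (adjusted p = 0.0654, and 0.0137 with the block). In all 3 the siRNA and mock arrays did not overlap.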
